A study of Homo sapiens with 8 samples.

Results

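An shRNA against CBFA2T3 was given alone to cells of Reh, an established line of human B-cell precursors, and its effect on gene expression was measured. The comparison was defined by the array titles: the 2 arrays of cells that received the CBFA2T3 shRNA were set against the 2 arrays of cells that received a control shRNA, which their titles call mock. These were 4 of the 8 arrays of the study, and the replicate number was used as the pair. The other 4 arrays held cells with the CBFA2T3 shRNA plus IKKβ(EE), a constitutively active IκB kinase β, and cells with IKKβ(EE) alone, 2 arrays each. The study's design text traces Reh to acute lymphoblastic leukemia, whereas the sample labels file it under non-Hodgkin lymphoma. All samples were transfected cultures of this 1 line, so no untransfected cells were compared. The shRNA sequences, the time after transfection and any selection of transfected cells are not stated in the labels.

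CBFA2T3 encodes a nuclear corepressor of the ETO family. Proteins of this family do not bind DNA themselves: DNA-binding factors bring them to genes, and they in turn recruit further corepressors and histone deacetylases. In blood-forming cells CBFA2T3 is known from complexes with factors of early progenitors, LMO2 among them. Published work on Hodgkin lymphoma connects its loss with NF-κB activity and with transcription of the receptor gene CSF1R, and the combination with IKKβ(EE) addresses that question.

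RNA was hybridized to Affymetrix U133 Plus 2.0 arrays, on which a gene is read by 1 or more probe sets. Levels below are the authors' RMA values, log2 intensities, given for replicate 1 and then replicate 2, and a difference of 1 is a 2-fold change. Changes are CBFA2T3 shRNA minus control shRNA on the log2 scale, with the standard error (SE) of a limma fit after ±, and a probe set was called at a Benjamini-Hochberg adjusted p under 0.05. The 4 arrays correlated with each other at 0.9748 to 0.9912. Of 15 markers of B-cell precursors 13 were tested, and all 13, CD79A, PAX5, EBF1, DNTT and RAG1 among them, averaged at least log2 6. None of these 13 was called, and their summed level was 147.1 and 146.6 with the CBFA2T3 shRNA, against 147.8 and 148.9 with the control shRNA. In bulk RNA, fewer cells that express a gene and less RNA per cell cannot be told apart.

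The targeted gene was lower in the cells with its shRNA. CBFA2T3 stood at 8.40 and 8.11 with the CBFA2T3 shRNA, against 9.22 and 9.29 with the control shRNA. The arrays did not overlap, and both pairs fell. The change was -0.999 ± 0.14 (95% confidence interval -1.32 to -0.68), which left 50.03% of the control level (adjusted p = 0.0100). The call depended on the fit and on single arrays: the adjusted p was 0.0518 without the replicate block, 0.136 without shRNA replicate 2 and 0.0990 without control replicate 2. With IKKβ(EE) present CBFA2T3 was also lower, at 8.23 and 7.83 with the shRNA plus IKKβ(EE) and 8.91 and 8.89 with IKKβ(EE) alone (-0.87, adjusted p = 0.0255). CSF1R lay near background at 5.28 and 5.15 with the CBFA2T3 shRNA, against 4.95 and 5.004 with the control shRNA, and was not called (0.23 ± 0.17, adjusted p = 0.422).

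Among 24481 tested probe sets the calls numbered 1890 (7.72%), with 975 higher (3.98%) and 915 lower (3.74%). With 1 probe set for each of 11449 genes, 493 genes were called higher (4.31%) and 400 lower (3.49%). These gene percentages are the background for every list below. Most changes were modest. The median size of a called change was 0.702, and the calls of at least 2-fold numbered 214 higher and 157 lower. Rises reached further than falls, with 31 calls of at least 4-fold higher and 1 of at least 4-fold lower. By size alone, 219 probe sets (0.895%) changed at least 2-fold in the same direction in both pairs, 146 higher and 73 lower, and 214 of these were called. The groups did not overlap for 12231 probe sets (50%), so lack of overlap by itself set little apart, and 1845 of the called probe sets were among them.

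The count of calls rested on the pairing and on single arrays. Without the replicate block the calls numbered 169 (0.69%), with 72 higher and 97 lower, and all 169 were among the 1890. The call count was 11 without shRNA replicate 2, 65 without control replicate 2, 645 without shRNA replicate 1 and 1084 without control replicate 1, while all 1890 kept their sign in each of these fits. All 1890 had the same sign in both pairs, which by itself favours a kept sign when 1 array is left out. The pairs also differed in size: the SD of the change over all tested probe sets was 0.301 in pair 1 and 0.427 in pair 2. The changes of the pairs had the same sign for 69.6% of all tested probe sets and correlated at 0.698 over 24481 probe sets, which share arrays and normalization.

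**Figure D1:**
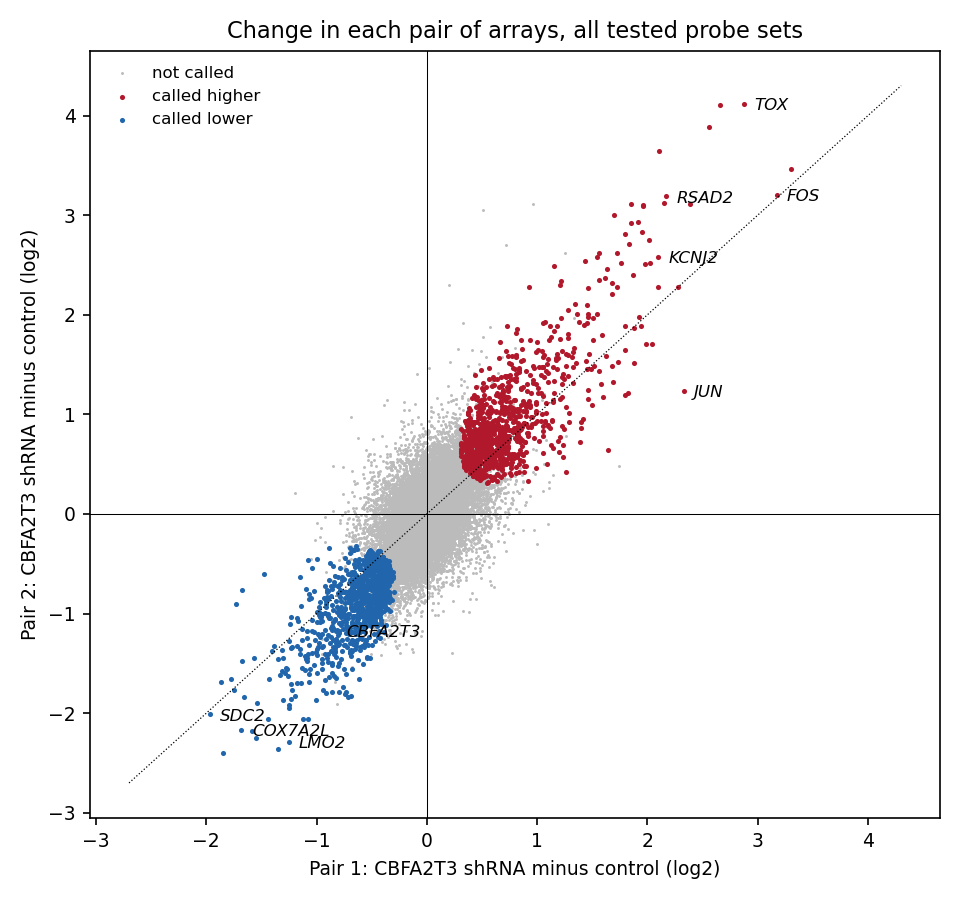
Change of each tested probe set in pair 1 (x axis) and pair 2 (y axis), CBFA2T3 shRNA minus control shRNA on the log2 scale, with called probe sets in red (975 higher) and blue (915 lower) and the dotted line marking equal changes. Among the labelled genes TOX, RSAD2, COX7A2L, LMO2 and CBFA2T3 changed more in pair 2, JUN changed more in pair 1 and FOS lay next to the line.

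Called genes were ranked by size if both group means were at least log2 6 and the groups did not overlap. Lack of overlap also fixes the same sign in both pairs. Among the genes ranked this way RSAD2, LGALS1, KCNJ2, MTSS1 and KCNJ16 had the largest rises. RSAD2, whose product viperin is an interferon-induced antiviral enzyme, stood at 9.01 and 10.15 with the CBFA2T3 shRNA, against 6.84 and 6.96 with the control shRNA. This difference (6.40-fold, 2.68 ± 0.32, adjusted p = 0.00768) was the largest among the 15 genes ranked here. LGALS1, encoding the carbohydrate-binding protein galectin-1, was at 7.94 and 9.66 with the CBFA2T3 shRNA and 5.98 and 6.57 with the control shRNA (2.53 ± 0.28, adjusted p = 0.00691). The neighbouring potassium channel genes KCNJ2 and KCNJ16 rose together. KCNJ2 was at 10.07 and 10.70 with the CBFA2T3 shRNA, against 7.97 and 8.12 with the control shRNA (2.34 ± 0.20, adjusted p = 0.00404). KCNJ16 was at 9.48 and 10.45 with the CBFA2T3 shRNA and 7.38 and 8.18 with the control shRNA (2.19 ± 0.12, adjusted p = 0.00226). Replicate 2 lay above replicate 1 for these 4 genes in both groups.

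The 15 also included ALOX5 and PTGER4. ALOX5, the enzyme that starts leukotriene synthesis, was at 9.03 and 9.96 with the CBFA2T3 shRNA and 7.17 and 7.56 with the control shRNA (2.13 ± 0.14, adjusted p = 0.00292). PTGER4, a prostaglandin E2 receptor, was at 9.85 and 11.17 with the CBFA2T3 shRNA and 8.17 and 8.84 with the control shRNA (2.00 ± 0.16, adjusted p = 0.00343). For ALOX5 and PTGER4 the other tested probe set pointed the same way without being called. MTSS1, a membrane-bending actin regulator, was at 7.95 and 9.39 with the CBFA2T3 shRNA, against 5.93 and 6.87 with the control shRNA (2.27 ± 0.21, adjusted p = 0.00458). Its other tested probe set changed by 0.48 with overlap between the groups and was not called (adjusted p = 0.132). ROBO1, a receptor of SLIT guidance proteins, was at 7.82 and 8.72 with the CBFA2T3 shRNA and 6.28 and 6.14 with the control shRNA (2.06 ± 0.22, adjusted p = 0.00598). IKZF2, a zinc finger factor of the Ikaros family, was at 9.49 and 9.89 with the CBFA2T3 shRNA and 7.61 and 8.38 with the control shRNA (1.70 ± 0.13, adjusted p = 0.00343). A rise in both pairs was part of the ranking rule.

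The remaining members of the 15 were ISG20, MELTF, PALD1, LY86, HVCN1 and CAPSL, with changes between 1.68 and 1.99. LY86 encodes a partner of the Toll-like receptor homologue of B cells, and HVCN1 a voltage-gated proton channel of B cells and phagocytes. All 15 had the same sign with IKKβ(EE) present and 11 were called there. Without the replicate block 5 of the 15 were called (RSAD2, ROBO1, PALD1, LY86 and CAPSL). Without shRNA replicate 2, 3 were called, and without control replicate 2, 9 were.

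Among called genes ranked by the same rule, COX7A2L, RASSF5, LMO2, PREX1 and PROM1 had the largest falls. COX7A2L, a factor that joins respiratory chain complexes into supercomplexes, was at 9.54 and 9.10 with the CBFA2T3 shRNA, against 11.22 and 11.27 with the control shRNA. This was the largest fall of the 15 genes ranked this way (-1.93 ± 0.17, 3.80-fold, adjusted p = 0.00458). RASSF5, a RAS and RAP effector that controls lymphocyte adhesion, was at 9.33 and 8.62 with the CBFA2T3 shRNA and 10.91 and 10.80 with the control shRNA (-1.88 ± 0.16, adjusted p = 0.00381). PREX1, which activates the GTPase RAC, was at 6.71 and 6.58 with the CBFA2T3 shRNA and 8.36 and 8.41 with the control shRNA (-1.75 ± 0.15, adjusted p = 0.00381). The control arrays of these 3 genes lay close together, and the spread was on the side of the CBFA2T3 shRNA for COX7A2L and RASSF5.

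LMO2, a bridging protein of transcription factor complexes in blood progenitors, was at 7.23 and 6.21 with the CBFA2T3 shRNA, against 8.49 and 8.50 with the control shRNA (-1.77 ± 0.22, adjusted p = 0.00836). PROM1, the gene of the progenitor surface glycoprotein CD133, was at 7.22 and 7.37 with the CBFA2T3 shRNA and 8.76 and 9.27 with the control shRNA (-1.72 ± 0.26, adjusted p = 0.0139). Its neighbour FGFBP2 fell as well, to 7.84 and 7.86 with the CBFA2T3 shRNA, against 9.02 and 9.56 with the control shRNA (-1.44 ± 0.17, adjusted p = 0.00734). CEACAM1, an inhibitory adhesion receptor, was at 6.55 and 6.30 with the CBFA2T3 shRNA and 8.33 and 7.95 with the control shRNA (-1.72 ± 0.11, adjusted p = 0.00250). BMPR2, a receptor of bone morphogenetic proteins, was at 6.78 and 6.60 with the CBFA2T3 shRNA and 8.04 and 8.23 with the control shRNA (-1.44 ± 0.14, adjusted p = 0.00458). For the probe sets given, the ranking rule fixed a fall in both pairs with no overlap. Other probe sets of CEACAM1 changed by -0.80 and -0.69 (called) and by -0.23 and -0.14 (not called). Those of BMPR2 changed by -1.39 and -0.72 (called) and by -0.54 (not called).

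CARNMT1, B4GALT6, SHROOM3, ATP11A, MAPK9, ADAM9 and IRX3 completed this set, with changes between -1.60 and -1.37. B4GALT6 makes lactosylceramide, ATP11A flips membrane phospholipids, MAPK9 is a JUN N-terminal kinase and ADAM9 a membrane-bound protease. The other tested probe set of ATP11A changed by -0.17 and was not called (adjusted p = 0.662). Of the 15 genes 14 were called with IKKβ(EE) present as well, and PREX1 was the exception (-0.34, adjusted p = 0.207). Without the replicate block 11 of the 15 were called, and LMO2, CARNMT1, MAPK9 and IRX3 were not. None of the 15 was called without shRNA replicate 2, where their adjusted p ran from 0.0552 to 0.142, and 6 were called without control replicate 2.

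**Figure D2:**
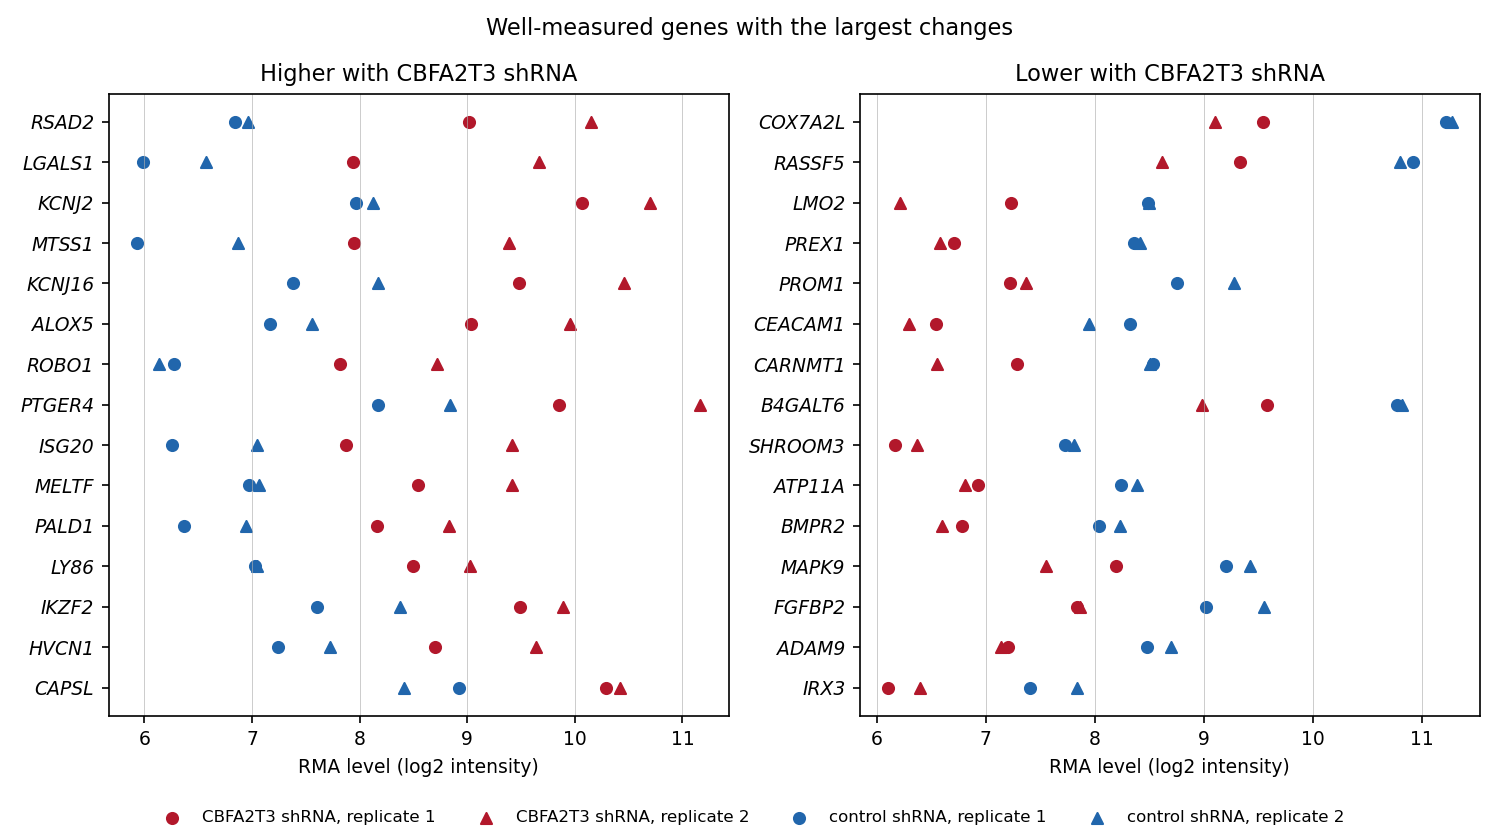
RMA level (log2 intensity, x axis) of the 15 well-measured genes with the largest rise (left) and the 15 with the largest fall (right), with CBFA2T3 shRNA arrays in red and control shRNA arrays in blue, circles for replicate 1 and triangles for replicate 2. The red and blue points lie apart because genes with overlap were left out. For RSAD2 the red points are at 9.01 and 10.15 and the blue points at 6.84 and 6.96.

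Some of the largest fitted changes belong to genes whose lower group lay near background, so their folds are uncertain. Of the probe sets called higher, 170 had a control mean under log2 5, and of those called lower, 84 had a CBFA2T3 shRNA mean under log2 5. TOX, a nuclear factor of developing lymphocytes, was at 5.67 and 6.91 with the CBFA2T3 shRNA and 2.80 and 2.79 with the control shRNA (3.50 ± 0.33, adjusted p = 0.00458). FOS, a subunit of the transcription factor AP-1, was at 7.87 and 8.36 with the CBFA2T3 shRNA, against 4.70 and 5.15 with the control shRNA (3.19 ± 0.26, adjusted p = 0.00345). CDC42EP3 was at 6.61 and 7.61 with the CBFA2T3 shRNA and 4.05 and 3.72 with the control shRNA (3.22 ± 0.32, adjusted p = 0.00488), and its 3 other tested probe sets were called higher as well. ANXA1, a phospholipid-binding annexin, was at 5.83 and 7.04 with the CBFA2T3 shRNA and 3.68 and 3.92 with the control shRNA (2.64 ± 0.21, adjusted p = 0.00343). GOLIM4, PLS3, SUCNR1 and GPR18 completed the 8 largest rises of this kind, from 2.39 to 3.38. These 8 were taken among called genes without overlap between the groups, so their arrays lie apart by choice, and the falls below were taken likewise.

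On the lower side, the heparan sulfate proteoglycan SDC2 was at 4.13 and 3.46 with the CBFA2T3 shRNA, against 6.10 and 5.47 with the control shRNA (-1.99 ± 0.20, adjusted p = 0.00485). Its other probe sets changed by -0.89 (called lower) and by -0.23 (not called, adjusted p = 0.361), the latter with opposite signs in the pairs. ACKR3, a scavenging receptor for the chemokine CXCL12, was at 4.40 and 4.63 with the CBFA2T3 shRNA and 5.84 and 6.69 with the control shRNA (-1.75 ± 0.20, adjusted p = 0.00719). INSC, WDFY3-AS2, TNFAIP6, PCDHB14, LRRC17 and PURPL changed by -1.42 to -1.22, of which WDFY3-AS2 is named as an antisense transcript. The other tested probe set of TNFAIP6 changed by -0.38 and was not called (adjusted p = 0.229). With IKKβ(EE) present 7 of the 8 dim genes that rose were called, all higher, and 4 of the 8 that fell were called, of which TNFAIP6 was higher there. Without the replicate block 4 of the 8 rises and 5 of the 8 falls were called, without shRNA replicate 2, 2 and 0, and without control replicate 2, 5 and 2.

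Interferon response genes rose in number. Cells sense foreign nucleic acid through receptors such as RIG-I, and the interferon made in response raises antiviral genes, many of which carry interferon-stimulated response elements in their promoters. Of 65 tested members of the interferon list 16 were called higher (24.6%) and 0 lower, against backgrounds of 4.31% and 3.49%. The median change of the 65 was 0.266, against 0.0223 over all tested genes, and 52 had a positive sign. The promoters of 4 of the called genes are shown because they carry the response element that the list is known for. Each line gives the 150 bases before a RefSeq start (GRCh38.p14), 5′ to 3′. Matches to GAAANNGAAA on either strand are in capitals, so that a match on the opposite strand reads TTTC, any 2 bases, TTTC. The start shown was taken among those with a match, and the other start listed for RSAD2 had 0 matches.

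RSAD2 (chr2:6877627-6877776, plus strand): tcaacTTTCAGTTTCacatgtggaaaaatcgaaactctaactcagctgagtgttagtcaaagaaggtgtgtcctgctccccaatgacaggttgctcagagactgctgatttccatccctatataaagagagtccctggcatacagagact
ISG15 (chr1:1013347-1013496, plus strand): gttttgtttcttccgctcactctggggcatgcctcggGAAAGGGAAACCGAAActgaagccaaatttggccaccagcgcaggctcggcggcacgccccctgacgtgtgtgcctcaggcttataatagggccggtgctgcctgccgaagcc
IFIT1 (chr10:89392473-89392622, plus strand): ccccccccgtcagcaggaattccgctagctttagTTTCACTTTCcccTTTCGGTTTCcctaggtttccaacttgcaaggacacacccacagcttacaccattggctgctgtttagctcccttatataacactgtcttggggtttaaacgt
ISG20 (chr15:88638866-88639015, plus strand): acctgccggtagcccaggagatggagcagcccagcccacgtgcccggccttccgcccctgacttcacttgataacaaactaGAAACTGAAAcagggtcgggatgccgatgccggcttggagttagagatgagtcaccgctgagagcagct

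RSAD2 and ISG20 held 1 match each in these windows, IFIT1 held 2 and ISG15 held 2 that overlap. In windows from 250 bases before to 50 after the start, 7 of the 12 called interferon genes with a promoter in the table held a match (58.3%). Among interferon genes that were tested and not called, 21 of 37 did (56.8%), so the letters did not set the called members apart from the rest of their list. Among all genes called higher 38 of 393 held a match (9.67%), among all tested genes 388 of 9361 (4.14%), and among all 27305 genes with a promoter 1195 did (4.38%). A match describes the letters only and shows no binding.

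By role, the antiviral effectors held most of the calls. Of 41 tested effectors 13 were called higher, with a median change of 0.391. ISG15, a ubiquitin-like modifier, was at 11.65 and 12.12 with the CBFA2T3 shRNA and 10.80 and 10.57 with the control shRNA (1.20 ± 0.18, adjusted p = 0.0137). ISG20, an RNA exonuclease whose promoter is printed above, was at 7.87 and 9.41 with the CBFA2T3 shRNA and 6.26 and 7.04 with the control shRNA (1.99 ± 0.28, adjusted p = 0.0105), and its other tested probe set was called too. OASL, a relative of the oligoadenylate synthetases, was at 5.92 and 7.12 with the CBFA2T3 shRNA and 4.70 and 4.78 with the control shRNA (1.78 ± 0.29, adjusted p = 0.0160). The IFIT genes, which encode RNA-binding inhibitors of translation and lie side by side, were called as a run of 4. IFIT2 changed by 1.66 ± 0.21, IFIT3 by 1.33 ± 0.15, IFIT1 by 1.20 ± 0.24 and IFIT5 by 1.07 ± 0.20, with adjusted p from 0.00712 to 0.0293. The neighbour of RSAD2, CMPK2, changed by 1.06 ± 0.18, and OAS2, HERC6, IFI44 and SAMHD1 by 0.49 to 0.87. Other effectors stayed uncalled, MX1 and OAS3 among them with negative signs.

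The other roles held fewer calls. Of 10 sensors 2 were called, RIGI (0.48 ± 0.10, adjusted p = 0.0308), which encodes RIG-I, and DHX58 (0.90 ± 0.12, adjusted p = 0.00928), a regulator of RIG-I. Of 7 transcription factors IRF9 was called, at 6.87 and 7.52 with the CBFA2T3 shRNA, against 6.20 and 5.79 with the control shRNA (1.20 ± 0.25, adjusted p = 0.0322). None of 4 receptors and ligands and none of 3 feedback inhibitors was called. Pair 2 rose more than pair 1 for 15 of the 16 called genes, SAMHD1 being the exception. With IKKβ(EE) present 13 list members were called higher and 0 lower. The calls depended on the block and on the second pair: 3 of the 16 were called without the replicate block (RSAD2, ISG15 and OAS2), 8 without control replicate 1, 0 without shRNA replicate 2 and 0 without control replicate 2. In those last settings the adjusted p of the 16 ran from 0.0868 to 0.265 and from 0.0763 to 0.242.

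**Figure D3:**
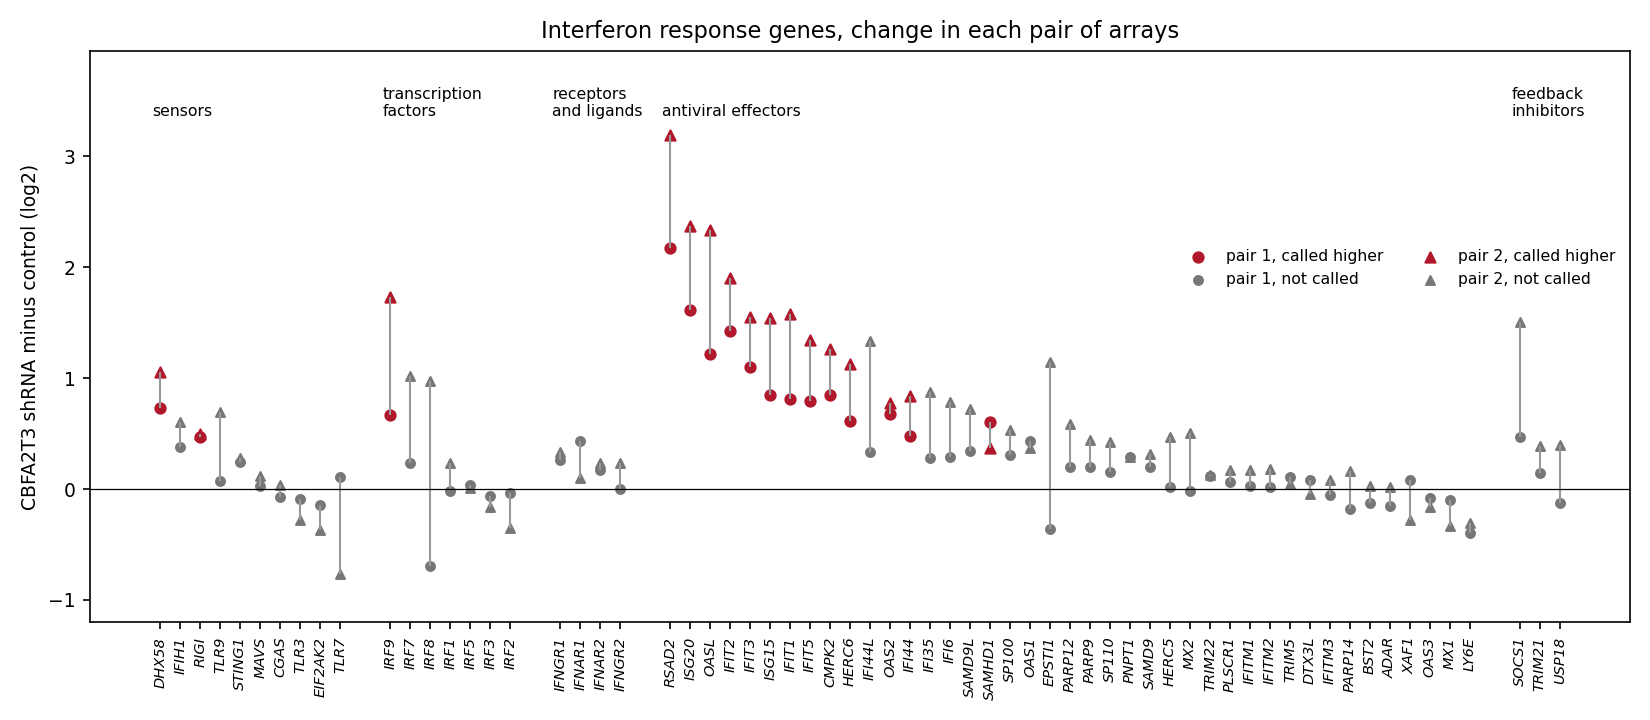
Change in pair 1 (circles) and pair 2 (triangles) of the 65 tested interferon response genes, CBFA2T3 shRNA minus control shRNA on the log2 scale (y axis), grouped by role along the x axis, with the 16 called genes in red. The called genes lie above 0 in both pairs and 13 of the 16 are antiviral effectors.

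The machinery of RNA interference, which an shRNA uses, gave no calls: of 13 tested genes 0 were called, with differences between -0.35 (TNRC6A, a partner of Argonaute) and 0.24 (TARBP2, a partner of Dicer).

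Lineage genes changed in several programmes. In the B-lineage list 11 of 52 tested genes were called higher (21.2%) and 2 lower (3.85%), with a median change of 0.0421. SPIB, an ETS factor of B cells, was at 7.36 and 7.67 with the CBFA2T3 shRNA, against 5.90 and 5.66 with the control shRNA (1.74 ± 0.22, adjusted p = 0.00876). TCL1A, a coactivator of the kinase AKT, was at 10.42 and 10.54 with the CBFA2T3 shRNA and 9.55 and 9.43 with the control shRNA (0.99 ± 0.14, adjusted p = 0.0105). IKZF2, described above, was the third of these leading genes. Called surface and signalling genes were CD9, CD72, CD38, IGHM, PLCG2, PTPN6 and FCRLA, and the germinal centre repressor BCL6 rose by 0.62 ± 0.11. For CD9 the groups overlapped, at 10.44 and 11.87 with the CBFA2T3 shRNA and 9.29 and 11.20 with the control shRNA, and the call came from the difference within each pair. IL7R, the interleukin-7 receptor of early lymphocytes, was at 11.92 and 11.67 with the CBFA2T3 shRNA and 12.51 and 12.35 with the control shRNA (-0.64 ± 0.10, adjusted p = 0.0148). BCL11A, a factor needed for early B cells, changed by -0.50 ± 0.12 (adjusted p = 0.0479). Of these 13 genes 2 were called without the replicate block, 1 without shRNA replicate 2, 1 without control replicate 2 and 2 without shRNA replicate 1.

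Genes best known from T and NK cells had 6 of 18 tested members called higher (33.3%) and 0 lower. GATA3, a zinc finger factor of T cells, was at 7.68 and 8.53 with the CBFA2T3 shRNA, against 5.70 and 6.02 with the control shRNA (2.25 ± 0.22, adjusted p = 0.00458). LCK, a Src-family kinase of the T-cell receptor that B-lineage leukemia cells can also express, was at 6.68 and 7.31 with the CBFA2T3 shRNA and 5.04 and 4.85 with the control shRNA (2.05 ± 0.19, adjusted p = 0.00458). TOX, the chemokine gene CCL5, the granule membrane gene NKG7 and the common cytokine receptor chain IL2RG were the others, with CCL5 at 7.75 and 8.51 with the CBFA2T3 shRNA and 6.72 and 7.30 with the control shRNA. Of 46 list members 18 passed the filter on low values, and genes that are high in 1 group only can pass it through that group. No defining T-cell marker was called: 3 of 10 were tested, and CD247 was the one that averaged log2 6. Their summed level was 18.75 and 18.74 with the CBFA2T3 shRNA and 18.72 and 18.43 with the control shRNA. Of 8 NK-cell markers 3 were tested and none averaged log2 6. Their sum was 15.86 and 16.22 with the CBFA2T3 shRNA, against 15.5 and 14.6 with the control shRNA, with NKG7 called. Of the markers of monocytes or macrophages 2 were tested, none averaged log2 6 and none was called, and their sum was 11.15 and 11.36 with the CBFA2T3 shRNA, against 10.27 and 10.61 with the control shRNA. Of the markers of fibroblasts or epithelium 3 were tested, COL1A1 and PDGFRB averaged log2 6 and none was called, and their sum was 18.77 and 19.06 with the CBFA2T3 shRNA, against 18.3 and 17.92 with the control shRNA. These 3 sums were higher without overlap between the groups, and so was the T-cell sum. The level of CEBPE, the 1 granulocyte marker tested (6.346 and 6.199 with the CBFA2T3 shRNA, 6.128 and 6.055 with the control shRNA), was too. So was the erythroid sum (15.58 and 15.45 with the CBFA2T3 shRNA, 15.25 and 15.38 with the control shRNA). The plasma cell sum, from 3 tested markers, overlapped between the groups (21.12 and 21.48 with the CBFA2T3 shRNA, 20.5 and 21.45 with the control shRNA). The B-cell precursor sum was lower without overlap. Groups did not overlap for 50% of all tested probe sets, so this sets little apart. The part of other cells in any rise given here, ALOX5, LY86 and HVCN1 included, was not tested. Of the 6 called genes 2 were called without the replicate block, 1 without shRNA replicate 2 and 2 without control replicate 2.

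Progenitor and leukemia genes included falls besides those of LMO2 and PROM1: of 20 tested genes 4 were called lower (20%) and 2 higher (10%), with a median change of -0.153. MN1, a transcriptional coregulator of myeloid leukemia, was at 5.29 and 5.26 with the CBFA2T3 shRNA, against 7.15 and 6.95 with the control shRNA (-1.77 ± 0.12, adjusted p = 0.00337). MECOM, a stem cell zinc finger factor, changed by -0.74 ± 0.10 (adjusted p = 0.0111). The 2 rises were those of the integrin gene ITGA6 (0.79 ± 0.10, adjusted p = 0.00904) and of RUNX2, which stood near background at 3.25 and 4.56 with the CBFA2T3 shRNA and 2.64 and 3.20 with the control shRNA. Of the 6 genes 4 were called without the replicate block, 1 (MN1) without shRNA replicate 2 and 1 without control replicate 2.

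Among the ETO family and its partners little passed. Of 30 tested genes HDAC9, a histone deacetylase, was called higher, at 8.14 and 8.60 with the CBFA2T3 shRNA and 7.47 and 7.76 with the control shRNA (0.75 ± 0.10, adjusted p = 0.0102). Besides CBFA2T3 itself RCOR3, a corepressor of the CoREST family, was called lower (-0.54 ± 0.11, adjusted p = 0.0311). CBFA2T2, another ETO family member, differed by 0.16 (adjusted p = 0.497) and was not called by any of its 3 tested probe sets. The 8 tested DNA-binding partners held 0 calls. None of the 3 calls was kept without the replicate block, without shRNA replicate 2 or without control replicate 2.

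AP-1 and other early response factors, which cells induce quickly and transiently after a stimulus, had 7 of 34 tested members called higher (20.6%) and 0 lower. All 9 tested AP-1 genes had a positive sign, with a median change of 0.688, and FOS, JUN and ATF3 were called. JUN was at 9.14 and 10.47 with the CBFA2T3 shRNA, against 6.81 and 9.23 with the control shRNA (1.78 ± 0.30, adjusted p = 0.0178). Its groups overlapped, and the control arrays differed from each other by more than the fitted change. EGR1, a zinc finger factor, was at 6.70 and 6.93 with the CBFA2T3 shRNA and 5.24 and 4.66 with the control shRNA (1.86 ± 0.44, adjusted p = 0.0465). KLF2, KLF6 and ZFP36, which encodes a decay factor of short-lived mRNAs, changed by 0.59 to 1.06, and the groups of KLF2 and KLF6 overlapped. No member was called without the replicate block or without shRNA replicate 2, and 2 were without control replicate 2 or without shRNA replicate 1.

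The list of cholesterol and lipid genes held regulators, synthesis enzymes, many of which SREBF2 switches on when sterol is low, and transport genes such as ABCA1, which is known to be induced when sterol is high. It had 30 of 34 tested members with a positive sign and a median change of 0.286. Of the 34, 5 were called higher (14.7%) and 0 lower. STARD4, a sterol carrier, was at 8.88 and 9.43 with the CBFA2T3 shRNA, against 7.99 and 8.39 with the control shRNA (0.97 ± 0.22, adjusted p = 0.0404). The sterol efflux pump gene ABCA1 was at 7.39 and 7.78 with the CBFA2T3 shRNA and 6.48 and 6.97 with the control shRNA (0.86 ± 0.11, adjusted p = 0.00904). The synthesis enzymes LSS and IDI1 and the regulator SREBF1 changed by 0.60, 0.46 and 0.49. Of 21 tested synthesis enzymes 20 had a positive sign and 2 were called. None of the 5 was called without the replicate block, without either shRNA array or without control replicate 2, and 1 was without control replicate 1.

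In the integrated stress response, in which the factor ATF4 raises genes of amino acid supply, 14 of 16 tested genes of the ATF4 arm had a positive sign and 5 were called higher. TRIB3, a pseudokinase, was at 10.51 and 11.36 with the CBFA2T3 shRNA, against 9.10 and 10.40 with the control shRNA (1.19 ± 0.15, adjusted p = 0.00904). DDIT3, the factor CHOP, was at 9.31 and 10.18 with the CBFA2T3 shRNA and 8.33 and 9.41 with the control shRNA (0.87 ± 0.11, adjusted p = 0.00876), with overlap between the groups. CHAC1, CEBPB and PPP1R15A were called as well. The endoplasmic reticulum arm differed: 7 of 17 tested genes had a positive sign, its sensor ERN1 was called higher (0.43 ± 0.10) and the chaperone PDIA4 lower (-0.67 ± 0.11). Of 33 tested genes in the 2 arms together 6 were higher (18.2%) and 1 lower (3.03%). None of these 7 was called without the replicate block, without shRNA replicate 2 or without control replicate 2. With IKKβ(EE) present 1 member was called higher and 1 lower.

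NF-κB targets, the genes that IKKβ acts on, split under the CBFA2T3 shRNA alone, with 4 of 41 called higher (9.76%) and 4 lower (9.76%). CXCL8, a neutrophil chemokine, was at 6.19 and 7.99 with the CBFA2T3 shRNA, against 5.33 and 6.24 with the control shRNA (1.30 ± 0.23, adjusted p = 0.0216), with overlap between the groups. NFKBIZ, a nuclear regulator of NF-κB, was at 6.48 and 7.22 with the CBFA2T3 shRNA and 5.76 and 5.84 with the control shRNA (1.05 ± 0.18, adjusted p = 0.0183). CCL5, given above, was the third call, and BCL2A1, an anti-apoptotic gene, lay below log2 5 in all 4 arrays. On the lower side LTB, a lymphotoxin subunit, was at 8.71 and 8.75 with the CBFA2T3 shRNA and 10.39 and 9.52 with the control shRNA (-1.22 ± 0.20, adjusted p = 0.0165). TNFAIP2, the inhibitor TRAF3 and the survival gene BCL2 were the others, and BCL2 was at 9.83 and 9.55 with the CBFA2T3 shRNA, against 10.34 and 10.68 with the control shRNA. With IKKβ(EE) present 12 members were called higher and 0 lower. Of the 8 calls 0 were made without the replicate block, without shRNA replicate 2 or without control replicate 2.

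Apoptosis genes had 3 of 27 tested members higher (11.1%) and 1 lower (3.7%). PMAIP1, the BH3-only protein NOXA, was at 12.12 and 12.66 with the CBFA2T3 shRNA, against 11.34 and 11.63 with the control shRNA (0.91 ± 0.11, adjusted p = 0.00876). HRK, another BH3-only gene, changed by 0.87 ± 0.12 with overlapping groups, and BCL2A1 and BCL2 are those given above. None of the 4 was called without the replicate block, shRNA replicate 2 or control replicate 2.

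Surface, matrix and cytoskeletal genes moved in both directions. Of 14 tested annexins, galectins and S100 proteins 4 were called higher (28.6%) and 3 lower (21.4%). Next to LGALS1 and ANXA1, the annexin ANXA2 was at 6.33 and 7.39 with the CBFA2T3 shRNA, against 5.56 and 5.80 with the control shRNA (1.18 ± 0.24, adjusted p = 0.0320), and the galectin LGALS9 rose by 0.75 ± 0.14. LGALS8 was at 8.69 and 8.80 with the CBFA2T3 shRNA and 9.53 and 10.21 with the control shRNA (-1.12 ± 0.19, adjusted p = 0.0177), and LGALSL and ANXA11 fell by 0.73 and 0.64. The 4 tested galectins were thus all called, 2 in each direction. The adhesion list also held proteoglycan and matrix genes. Of its 22 tested genes 3 were called higher, ALCAM (0.93 ± 0.15), ITGA6 and ICAM2 (0.54 ± 0.10), and 3 lower, CEACAM1, the lactosylceramide enzyme gene B4GALT6 and SDC2. Of the 18 integrin and adhesion genes 3 were higher and 1 lower, and of the 4 proteoglycan and matrix genes 2 were lower. Among genes of the cell's inner scaffold, the actin regulator CORO1A rose (0.81 ± 0.11, adjusted p = 0.0102), as did the intermediate filament gene VIM (0.59 ± 0.14), while SORBS2 (-1.29 ± 0.23) and the nuclear lamin LMNB1 (-1.11 ± 0.17) fell. Without the replicate block 1 call was made among annexins, galectins and S100 proteins and 4 among adhesion genes, without shRNA replicate 2, 1 and 0, and without control replicate 2, 2 and 2. Of the 4 scaffold genes CORO1A was the one called without the replicate block.

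Genes of developmental signalling were called in both directions. Of 35 tested genes of TGF-beta, WNT and NOTCH signalling 5 were called lower (14.3%) and 2 higher (5.71%). Besides BMPR2 these were the BMP signal transducer SMAD5 (-0.64 ± 0.14), the WNT coreceptor LRP6 (-0.66 ± 0.13), the corepressor TLE3 and the NOTCH feedback gene NRARP (-0.55 ± 0.12). TLE3 was at 5.04 and 4.98 with the CBFA2T3 shRNA, against 5.97 and 5.83 with the control shRNA (-0.89 ± 0.09, adjusted p = 0.00596). The WNT antagonist DKK1 rose to 6.06 and 6.78 with the CBFA2T3 shRNA, against 5.37 and 5.59 with the control shRNA (0.94 ± 0.17, adjusted p = 0.0229), and TLE4 rose by 0.58 ± 0.11. Of these 7 calls 2 were made without the replicate block and 0 without shRNA replicate 2 or control replicate 2. Antigen presentation genes had 0 of 28 called higher and 3 lower (10.7%), while 19 had a positive sign and the median change was 0.0728. Of 12 tested class II genes 7 had a positive sign (median 0.0724) and 2 were called lower. The MHC class II chains HLA-DPB1 and HLA-DRB1 fell, HLA-DPB1 to 10.77 and 10.54 with the CBFA2T3 shRNA, against 11.61 and 11.88 with the control shRNA (-1.09 ± 0.16, adjusted p = 0.0122), and the peptide trimming enzyme ERAP1 changed by -0.54 ± 0.12. Probe sets of HLA class II genes can share sequence with related genes, so these levels are uncertain, and none of the 3 was called without the replicate block, shRNA replicate 2 or control replicate 2. Among interleukins, chemokines and their receptors 0 of 33 were called higher and 2 lower (6.06%), IL7R and ACKR3.

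Other programmes showed few or no calls. Of 48 genes of DNA replication 1 was called lower, GINS3 (-0.55 ± 0.12), none higher, and 9 had a positive sign (median -0.141). Of 48 G2/M genes 0 were called, with differences between -0.39 (CDK1, the mitotic kinase) and 0.28 (CENPN, a centromere protein). MYC and ribosome biogenesis genes (33 tested) held 0 calls and lay between -0.40 (MXD1, a MAX partner that opposes MYC) and 0.46 (MXI1, another such partner). Heat shock proteins (21 tested) held 0 calls and lay between -0.41 (HSPA14) and 0.42 (HSPB1). In the p53 and cell cycle inhibitor list the antiproliferative gene BTG1 was the 1 call of 26 (0.51 ± 0.12, higher, with overlapping groups). In glycolysis and hypoxia the mTOR inhibitor DDIT4 was at 12.32 and 12.69 with the CBFA2T3 shRNA, against 11.28 and 11.75 with the control shRNA (0.99 ± 0.14, adjusted p = 0.0108), and the glycolytic regulator PFKFB3 fell by 0.55, 2 calls among 36. Of 37 tested genes in the list of oxidative phosphorylation subunits the 1 call was COX7A2L, the supercomplex factor described above. All of these calls but that of COX7A2L were lost without the replicate block, and all were lost without shRNA replicate 2 or control replicate 2.

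**Figure D4:**
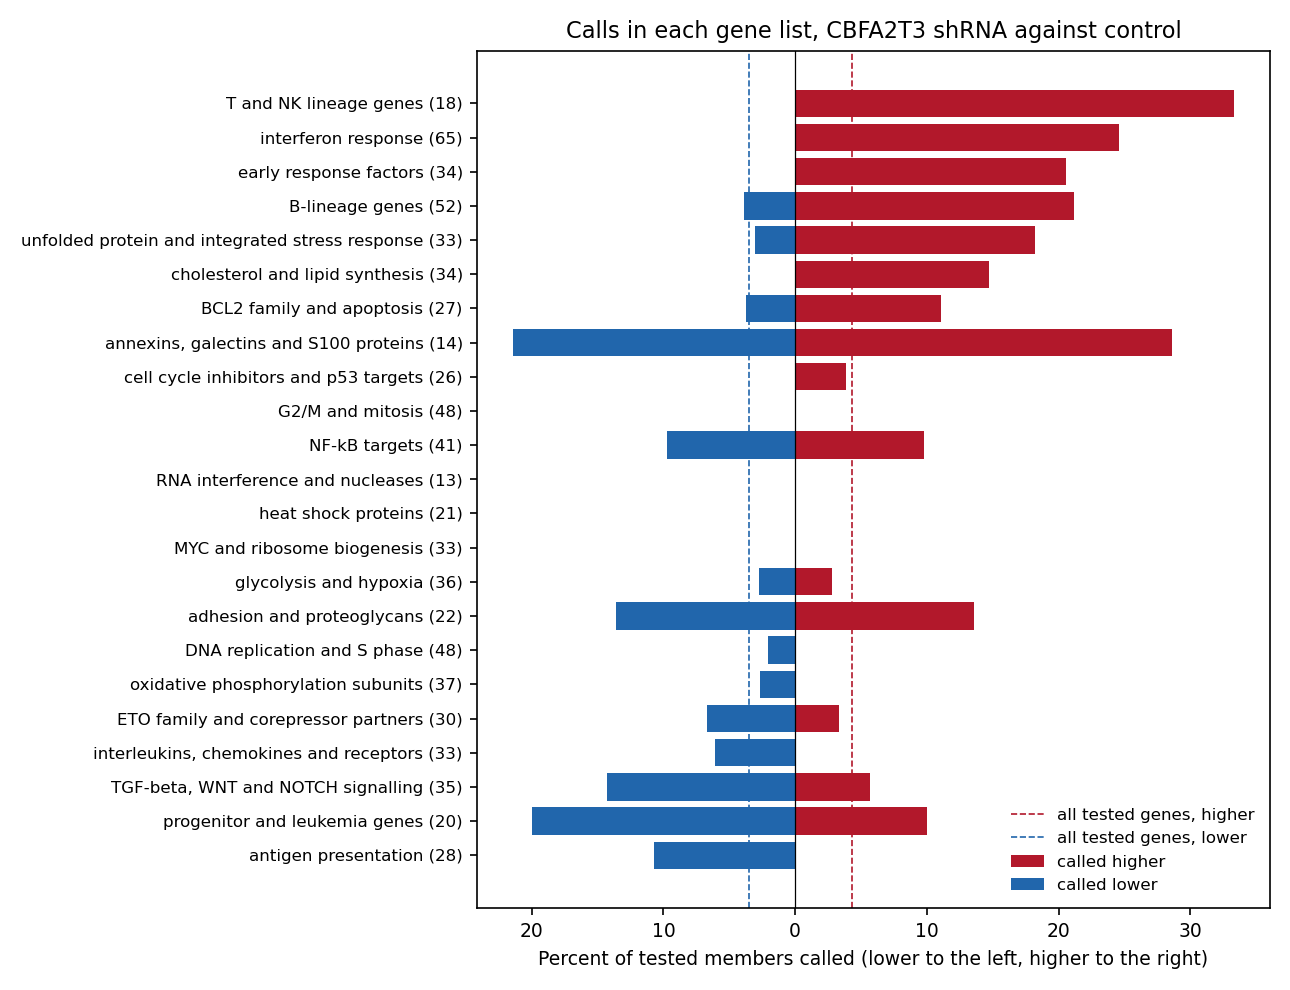
Percent of the tested members of each of 23 gene lists called higher (red, to the right) and called lower (blue, to the left) with the CBFA2T3 shRNA against the control shRNA, with the number tested in parentheses and dashed lines at 4.31% and 3.49%, the shares over all tested genes. T and NK lineage genes (33.3%) and interferon response genes (24.6%) reach far to the right with nothing to the left, while progenitor genes (20%) and annexins, galectins and S100 proteins (21.4%) reach furthest to the left. Of the 46 T and NK list members 18 passed the filter on low values, and genes high in 1 group only can pass it through that group.

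The 4 arrays with IKKβ(EE) allowed a further look at the same shRNA in arrays that the comparison did not use. They shared no array with it, but the fit gave both the same replicate term and the same spread. The shRNA effect with IKKβ(EE) present had 1117 called probe sets (4.56%). Of the 975 probe sets called higher by the shRNA alone 937 had the same sign there (96.1%), and of the 915 called lower 894 did (97.7%), against 74.2% of all tested probe sets. Calls in the same direction were made for 279 of the 975 (28.6%) and 374 of the 915 (40.9%), against 4.32% of all. Sizes were smaller with IKKβ(EE): the median change of the 975 was 0.436 with IKKβ(EE) present, against 0.700 without it, and that of the 915 was -0.546 with it, against -0.704 without it. These 975 and 915 were chosen by their change without IKKβ(EE), which by itself makes that change the larger.

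The test of the difference itself called 3 probe sets (0.0123%), and none of them was among the 1890. All 3 passed the filter on low values only through the arrays with the shRNA plus IKKβ(EE), where they were high. Opposite calls were made for 3 of the 1890: TNFAIP2 and TNFAIP6, both NF-κB-induced genes, and a probe set without a single gene symbol. TNFAIP6 was at 7.80 and 8.40 with the shRNA plus IKKβ(EE) and 7.07 and 7.06 with IKKβ(EE) alone, against 2.83 and 3.69 with the CBFA2T3 shRNA and 4.56 and 4.59 with the control shRNA. The difference between its shRNA effects was 2.35 ± 0.30 (adjusted p = 0.150) and did not pass. TNFAIP2 came closest with 1.37 ± 0.14 (adjusted p = 0.0536), as did ANXA1 with -2.97 ± 0.29 (adjusted p = 0.0536). For ANXA1 the shRNA made little difference with IKKβ(EE) present, at 6.74 and 7.45 with the shRNA plus IKKβ(EE) and 7.14 and 7.71 with IKKβ(EE) alone.

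**Figure D5:**
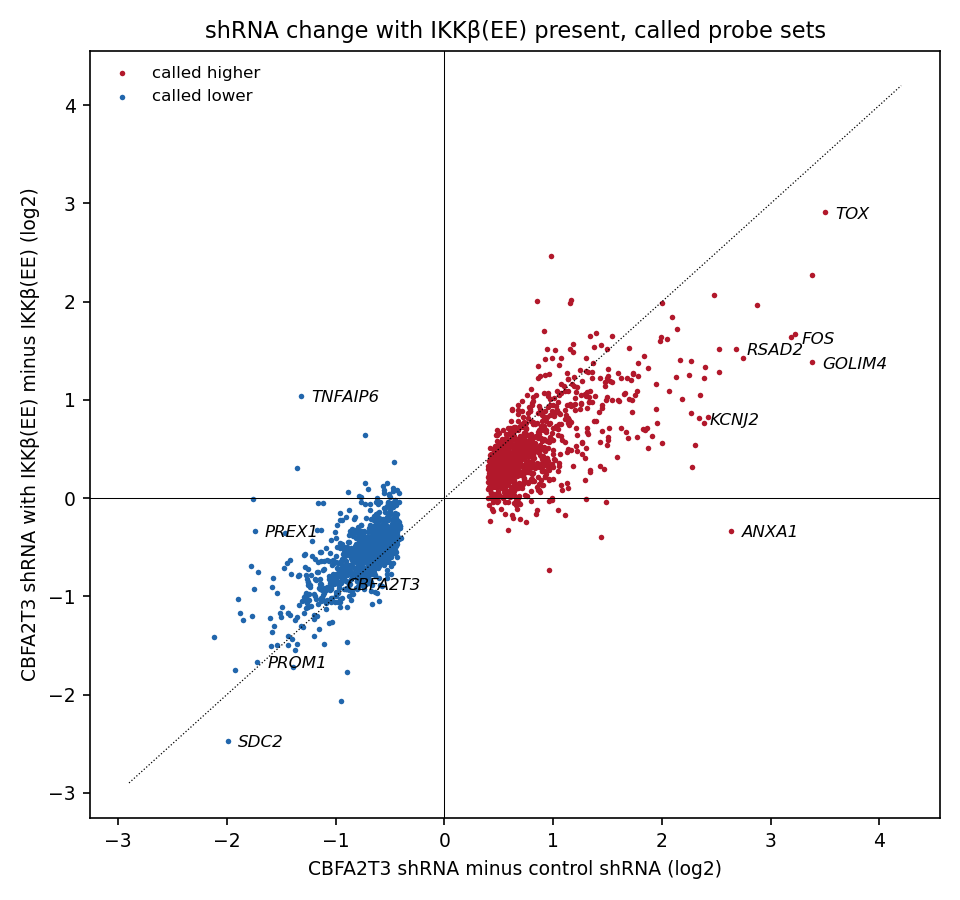
Change of the 1890 called probe sets under the CBFA2T3 shRNA alone (x axis) and under the same shRNA with IKKβ(EE) present (y axis), both on the log2 scale, with probe sets called higher in red, called lower in blue and the dotted line marking equal changes. Most points lie on the same side of 0 on both axes and nearer 0 on the y axis, and TNFAIP6 (-1.32 and 1.04) and ANXA1 (2.64 and -0.33) lie in the opposite quadrants.

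Other probe sets of the same genes gave a check within the arrays. The 443 called genes with several tested probe sets had 734 other probe sets, of which 653 had the same sign (89.0%) and 277 were called the same way (37.7%). Opposite calls were made for 2, in STAU2 and SKAP2. A probe set can read a different transcript end, so the disagreement says nothing about which is right.

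The calls that were made with every single array left out in turn were 9 probe sets. They were those of ANXA1, ALOX5, KCNJ16, IKZF2, the copper-dependent monooxygenase relative MOXD1, the aldehyde dehydrogenase ALDH8A1 and a probe set without a single symbol on the higher side, and MN1 and TBC1D9 on the lower side. TBC1D9, a predicted RAB GTPase-activating protein, was at 5.85 and 5.22 with the CBFA2T3 shRNA, against 7.69 and 7.62 with the control shRNA (-2.12 ± 0.15, adjusted p = 0.00337). The MOXD1 probe set among the 9 was at 6.48 and 7.31 with the CBFA2T3 shRNA and 4.56 and 5.34 with the control shRNA (1.95 ± 0.10, adjusted p = 0.00192). The MOXD1 probe set with the highest mean is another one and was also called higher (1.85, adjusted p = 0.00458). ALDH8A1 was at 5.89 and 6.53 with the CBFA2T3 shRNA and 4.01 and 4.67 with the control shRNA (1.87 ± 0.10, adjusted p = 0.00192). These 3 genes were named after their values were seen.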

How the data were processed

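Total RNA of the 8 transfected Reh cultures was labelled and hybridized by the authors. The authors deposited log2 values per probe set that they made with RMA, which corrects background, quantile-normalizes the arrays and summarises probes, per the submitters' processing notes; its version and the chip definition are not stated there. Quantile normalization removes a shift common to most genes. The largest value, 14.6, exceeds the natural log of a 16-bit maximum (11.09), so the scale was read as log2.

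From 54675 probe sets 62 controls and 30132 below log2 5 on all but at most 1 array were left out, and 24481 were tested. GEO's platform annotation named 1 gene for 41097 probe sets, more than 1 for 1801 and no gene for 11777; 41043 of the single names matched the reference gene table. The limma 3.58.1 (R 4.3.3) model had 1 mean per group over all 8 arrays and the replicate number as a block (3 residual degrees of freedom, 4.356 prior), two-sided, Benjamini-Hochberg adjusted. The replicate number was used as the pair because the comparison is defined that way. Differences between replicates 2 and 1 correlated in all 6 pairs of groups (0.344 to 0.577), 0.344 for the compared groups. This describes the arrays and does not show that equal numbers were handled together. The labels name biological replicates, and give no meaning to the numbers beyond that. Nothing says how far the cultures were separate, so p-values measure the spread between these arrays. The number of arrays limits the precision (median SE 0.1196), and an exact permutation test of 2 against 2 cannot go below 0.333. On simulated data (10 draws, 200 of 24481 changed) 97.8% of 2-fold and 99.9% of 4-fold changes of this comparison were recovered, with 8.17% false calls. This false share lies above the adjusted p threshold of 0.05. Whether the real arrays vary as the simulated ones do was not tested. The recovery therefore does not show how firm the real calls are, which fell from 1890 to 169 without the replicate block.

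A gene was read by its probe set with the highest mean. The 24 lists (956 genes, 781 tested), the members and the tests were chosen with earlier results of these data known, so lists are described by counts and medians only. The counts of 1 list are not reported here. The text names CBFA2T3 and CSF1R, and the 15 largest rises and falls among called genes with both means at least log2 6. It also names the 8 largest rises and falls among called genes with the lower mean under log2 5. Both rankings took genes without overlap between the groups. Up to 3 called members per list and direction are named too, and 6 uncalled genes whose pairs disagreed most. The further called members given were named after their values were seen. Promoters are RefSeq, GRCh38.p14. Alternatives were no block, the 4 arrays alone, other floors, trended robust moderation, cyclic loess, equal medians, 1 probe set per gene, array weights and each array left out. A fit without 1 array leaves 1 group with a lone array, which is assumed to vary like the others.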

Additional observations from a re-analysis of the deposited data

Results flagged for a closer look

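In 3 probe sets the effect of the CBFA2T3 shRNA differed with IKKβ(EE) present, by the interaction test over all tested probe sets, and in none of them was the shRNA effect without IKKβ(EE) called. HSPA6, an inducible heat shock protein, was at 8.42 and 8.27 with the shRNA plus IKKβ(EE) and 5.17 and 4.81 with IKKβ(EE) alone, against 4.07 and 4.03 with the CBFA2T3 shRNA and 4.19 and 4.56 with the control shRNA, a difference between the effects of 3.678 (adjusted p = 0.00868). SLAMF7, a surface receptor of lymphocytes, was at 6.74 and 7.02 with the shRNA plus IKKβ(EE) and 4.16 and 4.01 with IKKβ(EE) alone, against 3.15 and 3.51 with the CBFA2T3 shRNA and 3.35 and 3.23 with the control shRNA, a difference of 2.755 (adjusted p = 0.0210). A probe set with several gene symbols, which is not named here, had the third difference, 3.667 (adjusted p = 0.00147), with a change of 3.85 with IKKβ(EE) present and 0.18 without it. In the 4 arrays without IKKβ(EE) all 3 probe sets lay under log2 5. The filter asked for log2 5 on at least 2 arrays. All 3 passed it only through the arrays with the shRNA plus IKKβ(EE), where they were high. They thus entered the test through the group that makes the difference.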

How the results depend on the processing

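All 1890 called probe sets that were still tested kept their sign under every alternative, but the design fixes most of this. Dropping the block, changing the floor or the moderation, or leaving out an array with IKKβ(EE) does not alter the fitted change. All 1890 also had the same sign in both pairs, so a kept sign does not show how firm a call is. The number called moved. Without the replicate block 169 were called (72 higher, 97 lower), with no filter on low values 1114 (587 and 527), and with trended and robust moderation 2863 (1417 higher and 1446 lower). With 1 probe set per gene 1080 were called (594 and 486, of 11449 tested). Without the block the fitted changes were the same, the replicate difference counted as spread, and the median SE was 0.1544, against 0.1196 with it. The cause was not tested for trended and robust moderation. The fits with no filter and with 1 probe set per gene tested another number of probe sets. The 4 arrays alone, a floor at log2 6, cyclic loess, equal medians and array weights gave 1597 to 2522. Leaving out 1 array gave 11 (9 higher, 2 lower; without shRNA replicate 2) to 2125 (1082 and 1043; without either array of the shRNA plus IKKβ(EE)), and 1201 without either IKKβ(EE) array. CBFA2T3 changed by -1.149 to -0.8488 when 1 array was left out, and by -0.999 without the replicate block, where it missed the threshold (adjusted p = 0.0518). The 111 named probe sets include uncalled ones, which had no call to lose, and 64 lost the call without the replicate block. No sign could reverse there, because the fitted changes are the same.

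For the shRNA effect with IKKβ(EE) 35 probe sets were called without the replicate block, 643 with no filter, 2421 with trended and robust moderation, 674 with 1 probe set per gene, and 4 to 1553 with 1 array left out. The interaction gave 3 calls without the block, 10 with no filter, 9 with the floor at log2 6, 17 with trended and robust moderation, 10 with equal medians, 5 with 1 probe set per gene, 6 with array weights, and 0 to 57 with 1 array left out. Levels under log2 5 are near background, and their folds are the least certain.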

Other observations

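Called genes that neighbour each other on the reference annotation were counted as a description. Among 9399 pairs of adjacent tested genes less than 200 kb apart, both genes were called in 79 and 1 of them in 1184, where 4.31% of all tested genes were called higher and 3.49% lower, and whether neighbours were called together more often than other genes was not tested. Of the 79, both genes were called in the same direction in 63 (42 higher, 21 lower, 12 of them overlapping genes) and in opposite directions in 16. Besides KCNJ16 with KCNJ2, PROM1 with FGFBP2, CMPK2 with RSAD2 and the IFIT run, neighbours that rose together were the SLAM family genes CD84 (0.69), SLAMF1 (1.31) and CD48 (0.84), which encode lymphocyte surface receptors, the C-type lectin genes CD69 (1.49) and CLEC2B (0.84), and the membrane genes MS4A4A (1.06) and MS4A7 (1.31), which macrophages also express. TOX (3.50) rose with its divergent transcript TOX-DT (1.94), and CAPSL (1.68) with UGT3A1 (1.51). EML4 (-0.72) fell with COX7A2L (-1.93), and PHLPP1 (-0.85), a phosphatase of AKT, with BCL2 (-0.82). Between IL7R (-0.64) and CAPSL, and between CD38 (0.53) and FGFBP2, adjacent genes moved in opposite directions. These pairs were named after their values were seen.

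Some well-measured genes differed between the pairs by more than most and were not called. RAP1A, a small GTPase of adhesion, was at 10.63 and 11.76 with the CBFA2T3 shRNA and 10.84 and 10.84 with the control shRNA. MIR210HG, the host transcript of a hypoxia-induced microRNA, was at 6.14 and 7.002 with the CBFA2T3 shRNA and 5.53 and 7.44 with the control shRNA, higher in pair 1 and lower in pair 2. NPY, which encodes neuropeptide Y, was at 7.32 and 7.55 with the CBFA2T3 shRNA and 7.85 and 7.01 with the control shRNA, lower in pair 1 and higher in pair 2. MACO1, CHROMR and ZC3H6 completed this set, with adjusted p of 0.135, 0.104 and 0.927.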
